A study of Bos taurus with 90 samples.

Results

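Liver of Charolais (CH) steers was compared between 2 consecutive feeding phases: the zero-grazed grass (ZG) phase and the second high-concentrate (H2) phase. The libraries were chosen by their breed and diet labels alone, which gave 23 of the 90 libraries of the series, 6 from ZG and 17 from H2. The ZG steers ate freshly cut perennial ryegrass ad libitum and were 3 of low and 3 of high residual feed intake (RFI), the gap between the feed a steer eats and the feed predicted from its size and growth. The H2 steers were finished on a concentrate made mostly of rolled barley (860 g/kg), with soya bean meal and molasses (60 g/kg of each) and a mineral and vitamin mix (20 g/kg), offered ad libitum beside a limited amount of grass silage, and were 9 of low and 8 of high RFI. All were biopsied at the end of a phase and ranked for RFI anew in each phase. Cattle grazed grass between ZG and H2, so the H2 steers were older, heavier and sampled later, and diet, age, season and any laboratory batch cannot be told apart between the phases. The phases mostly held different steers: steer 307 was the only one with a library in both, as high RFI in ZG and low RFI in H2.

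A ruminant absorbs little glucose, and its liver makes most of what the animal needs from propionate and other products of rumen fermentation. A starch-rich concentrate shifts that fermentation towards propionate and raises energy intake, whereas fresh grass supplies more fibre, more soluble protein and many plant compounds for the liver to clear. The bovine liver also secretes plasma proteins, makes heme for its cytochromes and houses resident immune cells, while fatty acid synthesis in cattle takes place mainly in adipose tissue.

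Depth ranged from 16726145 to 33208581 reads assigned to genes in the ZG libraries and from 10579794 to 37835024 in the H2 libraries. Within these 23 libraries the first principal component of log2 CPM (reads of a gene scaled to the same library total) held 44.6% of the variance and did not separate the phases, with ZG libraries between -48.5 and 43.01 and H2 libraries between -76.0 and 62.6. The H2 libraries of steers 493 and 454 were its ends, and steer 788 lay apart from the other ZG libraries. In ZG the low RFI libraries lay at -48.5, 6.81 and 15.6 and the high RFI ones at 29.7, 30.5 and 43.01. In H2 the RFI groups intermixed on this component. Symbols could be matched to 328 gene identifiers, of which 312 passed the filter on low counts. Those symbols come from genes that the study listed for differing between RFI groups in these libraries, so a separation of low and high RFI among them is not independent evidence. None of 10 hepatocyte markers had a matched symbol, so the tissue label could not be checked with them, but the fibrinogen chains FGG and FGA, which hepatocytes secrete, had medians of 11465 and 10884 CPM in ZG. Whether fewer cells of a type or less RNA per cell lies behind any change cannot be told apart in pieces of whole liver.

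Of 12962 genes tested, 97 differed between the phases at an adjusted p under 0.1 in edgeR's quasi-likelihood test with RFI as covariate, which is 0.748% of those tested. The 63 genes higher in H2 were 0.486% and the 34 lower in H2 were 0.262% of all. The called changes had a median of 1.54-fold and ran from 1.23-fold to 6.61-fold, and 20 of the 97 were over 2-fold. The median log2 fold change over all genes was -0.01 and the median standard error 0.19. A further measure of separation was strict: in 19 genes, 0.147% of those tested, every H2 library lay on the same side of every ZG library, and 16 of them were among the 97. The count depended on single ZG libraries: 9 genes were called without steer 1831, 11 without steer 1816, 13 without steer 357, 25 without steer 437, 65 without steer 307 and 200 without steer 788. Without the H2 libraries of steers 454 and 493, 270 genes were called, 96 of the 97 among them.

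**Figure D1:**
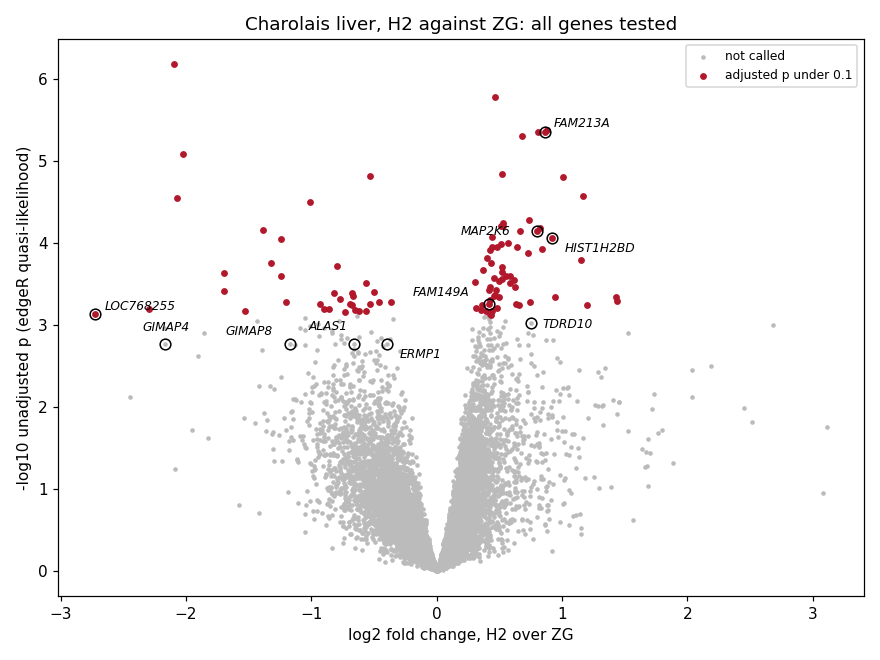
Each point is 1 of the 12962 genes tested in Charolais liver, with the log2 fold change of H2 over ZG on the horizontal axis and -log10 of the unadjusted edgeR p on the vertical axis. The 97 called genes are red, and the circled genes are the 5 higher and 5 lower in H2 with a symbol and the smallest p.

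Only 5 of the 97 called genes had a symbol, 1.6% of the 312 named genes tested against 0.748% of all genes. FAM213A, MAP2K6, HIST1H2BD and FAM149A rose in H2, and LOC768255 fell. The other 92 called genes carry an identifier without a matched symbol, and 4 of them, those of smallest p in each direction, are given after the named ones.

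FAM213A encodes a peroxiredoxin-like redox protein. Its ZG libraries lay between 47.3 and 65.1 CPM with a median of 55.3, and its H2 libraries between 68.8 and 151 CPM with a median of 100 CPM. All 17 H2 libraries were above all 6 ZG libraries. The rise was 1.82-fold (log2 fold change 0.86, SE 0.15, adjusted p = 0.011) and stayed called under all 16 alternatives run, with adjusted p between 9.6e-06 and 0.097. Steer 307 had 65.1 CPM in ZG and 87.9 CPM in H2.

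MAP2K6, the kinase that activates p38 stress-activated protein kinases, ranged from 10.6 to 18.2 CPM in ZG with a median of 11.6. In H2 it ranged from 14.8 to 43.3 CPM with a median of 22.4. The phases overlapped, yet 13 of the 17 H2 libraries lay above the highest ZG library. The rise was 1.74-fold (log2 fold change 0.80, SE 0.17, adjusted p = 0.044), and the call was lost without ZG steer 1816 (adjusted p = 0.17), 1831 (0.16) or 437 (0.13).

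HIST1H2BD, a histone H2B gene, had 3.24 to 6.46 CPM in ZG with a median of 4.50. Its H2 libraries lay between 5.20 and 14.2 CPM with a median of 8.10, and 15 of them exceeded the highest ZG library. The rise was 1.89-fold (log2 fold change 0.92, SE 0.20, adjusted p = 0.048), and the call was lost without ZG steer 1816 (adjusted p = 0.17), 1831 (0.16) or 357 (0.15), or both libraries of steer 307 (0.11). Histone genes are near-identical copies, so reads shared among them may have been lost in counting.

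FAM149A, whose role is not established, lay between 102 and 124 CPM in ZG with a median of 106. In H2 its median was 145 and its highest library 181 CPM, and 16 of the 17 H2 libraries were above the highest ZG library, while 1 lay just below the lowest. The rise was 1.33-fold (log2 fold change 0.42, SE 0.10, adjusted p = 0.092). It lost its call under 9 of 16 alternatives, among them the removal of any of ZG steers 1816, 1831, 307, 357 and 437 (adjusted p between 0.18 and 0.34).

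TDRD10, a tudor domain protein, was next in order of p among the named genes higher in H2. It ranged from 5.86 to 19.4 CPM in ZG with a median of 9.39 and from 10.7 to 28.1 CPM in H2 with a median of 16.1, so the phases overlapped (log2 fold change 0.76, SE 0.20, adjusted p = 0.12). In ZG its 3 low RFI libraries lay below the high RFI ones, and the change in low RFI minus that in high RFI was 0.97 (unadjusted p = 0.0083, adjusted p = 0.91). TDRD10 is among the genes the study listed for differing by RFI, so neither result is independent evidence.

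**Figure D2:**
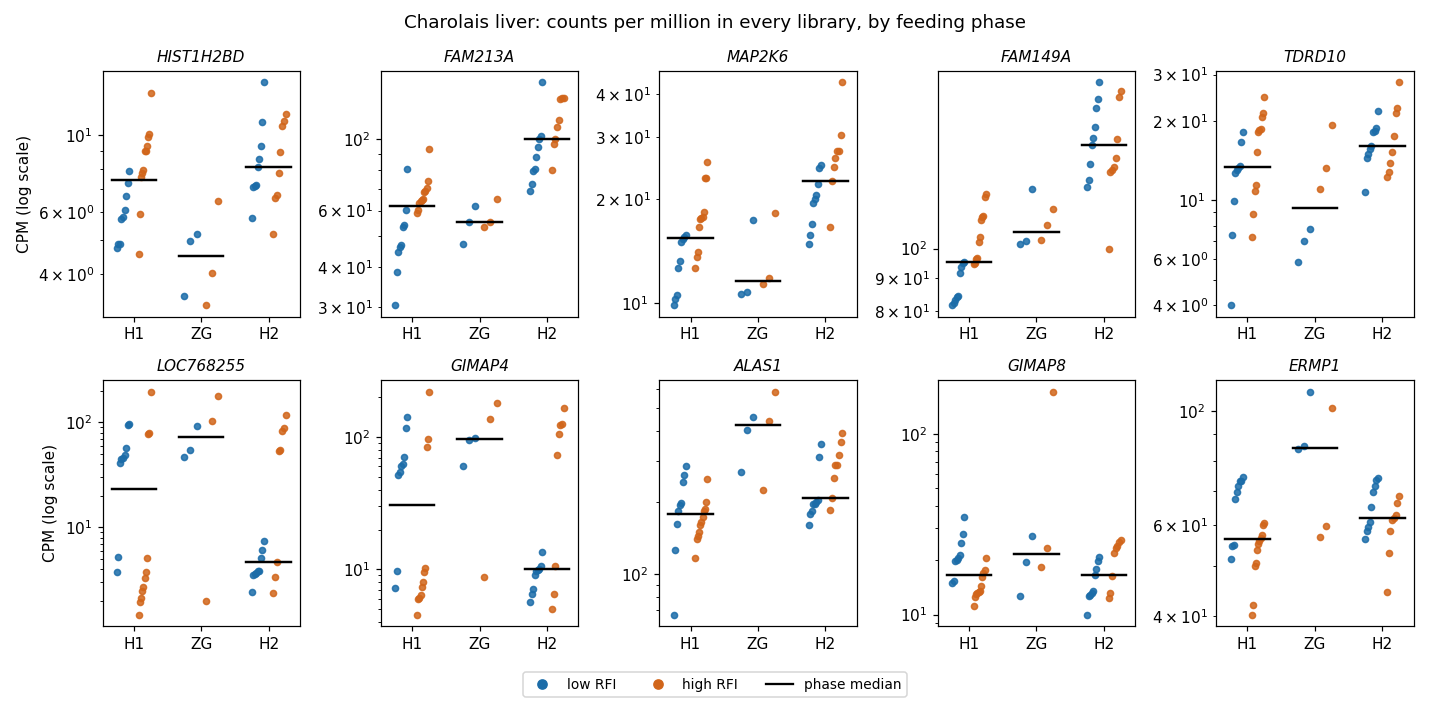
Level in CPM on a log axis in every Charolais library of H1, ZG and H2 for the 5 genes with a symbol that were higher in H2 at the smallest p (upper row) and the 5 that were lower (lower row). Points are libraries coloured by RFI group and bars are phase medians. FAM213A libraries of H2 lie above those of ZG without overlap, while LOC768255 and GIMAP4 fall into a low and a high set in each phase.

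LOC768255 fell by 2.73 on the log2 scale (SE 0.70, adjusted p = 0.0998), and its pattern differed from the others. The ZG libraries held 46.4, 54.7, 91.9, 103 and 180 CPM, apart from steer 307 at 1.97. In H2, 12 of the 17 libraries lay between 2.36 and 7.41 CPM, and the other 5 lay between 53.5 and 117 CPM. No Charolais library of any phase held between 7.41 and 41.0 CPM, and the low set made up 1 of 6 libraries in ZG, 10 of 20 in H1 and 12 of 17 in H2. In H2 all 9 low RFI libraries were in the low set, as were 3 of the 8 high RFI libraries. Without RFI in the model its log2 fold change was -1.58 (adjusted p = 0.40), and the call was lost under 11 of 16 alternatives.

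Steers sampled more than once kept their set for LOC768255. Steer 307 had 2.12 CPM in H1, 1.97 in ZG and 3.59 in H2. Steers 1320 and 364, low in H1 at 1.46 and 2.45 CPM, were low in H2 at 4.63 and 2.36. Steers 1816, 1831 and 1100, at 93.9, 41.0 and 45.6 CPM in H1, were high again at 103 and 46.4 in ZG and 88.3 in H2. So none of 6 Charolais steers moved between the sets, and for this gene a difference between steers cannot be told apart from a difference between phases. Holstein-Friesian (HF) libraries had the same gap, with none between 9.497 and 46.0 CPM, and 7 of 8 HF steers sampled more than once kept their set. The exception, HF steer 5612, had 257 CPM in ZG and 5.16 in H2.

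GIMAP4, a GTPase of the immunity-associated protein family found in lymphocytes, showed the same sets in the Charolais libraries of ZG and H2. It had 8.68 CPM in ZG steer 307 and between 60.7 and 180 CPM in the other 5 ZG libraries. In H2 the same 12 steers as for LOC768255 lay between 4.98 and 13.6 CPM, and the other 5 lay between 72.7 and 165 CPM. Its log2 fold change of -2.16 (SE 0.61) did not pass the test (adjusted p = 0.14), and the ZG and H2 medians were 94.6 and 9.70 CPM in the low RFI steers and 138 and 89.2 CPM in the high RFI steers. GIMAP8, of the same family, had 12.7 to 27.3 CPM in 5 ZG libraries, 171 CPM in ZG steer 437 and 9.93 to 25.9 CPM in H2. Its log2 fold change was -1.17 (adjusted p = 0.14) and became -0.27 (adjusted p = 0.69) without steer 437. GIMAP genes are related copies, and reads shared among them may have been lost in counting.

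**Figure D3:**
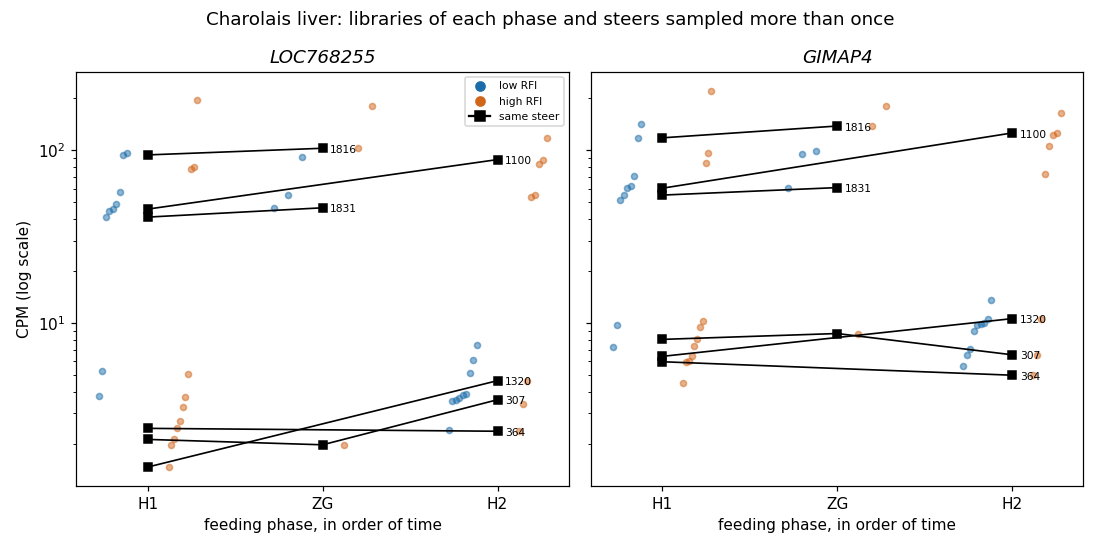
LOC768255 (left) and GIMAP4 (right) in Charolais liver, in CPM on a log axis, with the phases in order of time. Dots are libraries coloured by RFI group, and squares joined by lines are the 6 steers sampled in more than 1 phase, each of which stays in the low or the high set.

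Of the called genes without a symbol, ENSBTAG00000046846 and ENSBTAG00000026650 rose at the smallest p. ENSBTAG00000046846 had 35.9 to 42.7 CPM in ZG and 49.0 to 63.8 CPM in H2, with no overlap (log2 fold change 0.46, SE 0.07, adjusted p = 0.011). ENSBTAG00000026650 went from a median of 11.4 to 20.9 CPM (log2 fold change 0.88, SE 0.15, adjusted p = 0.011). ENSBTAG00000039035 went from a median of 2.64 to 0.449 CPM (log2 fold change -2.10, SE 0.31, adjusted p = 0.0085). ENSBTAG00000001414 went from a median of 1.57 to 0.532 CPM (log2 fold change -2.03, SE 0.36, adjusted p = 0.015). Its highest ZG library held 10.3 CPM, far above the ZG median, and its highest H2 library 1.42 CPM. The falling pair had low medians in both phases, so its change rests on few reads.

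At the looser mark of an unadjusted p under 0.05, 1720 genes (13.3% of those tested) differed, 931 higher in H2 (7.18%) and 789 lower (6.09%). Of the 312 named genes, 72 (23.1%) were past this mark, 30 higher and 42 lower. The genes of the following groups are given at that mark, and apart from FAM213A and MAP2K6 none of them passed the adjusted test. Group medians are log2 fold changes. None of the 41 pathway list entries with a matched symbol was called, and neither was CIDEC, the single matched entry of the cell marker lists.

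Redox, heme and detoxification genes lay in both directions. Of 17 tested, 5 were higher and 3 lower at the unadjusted mark, with a median of 0.08. MAOB, which oxidises monoamines, went from a ZG median of 645 CPM to an H2 median of 809, and 12 of 17 H2 libraries exceeded the highest ZG library (log2 fold change 0.43, SE 0.12, adjusted p = 0.13). PRDX6, a peroxiredoxin that reduces lipid peroxides, had medians of 212 and 277 CPM (log2 fold change 0.33, adjusted p = 0.25). ALAS1, the rate-limiting enzyme of heme synthesis, had 225 to 586 CPM in ZG with a median of 423 and 161 to 394 CPM in H2 with a median of 209. For ALAS1 the phases overlapped, with 4 of 6 ZG libraries above the highest H2 library and 9 of 17 H2 libraries below the lowest ZG library (log2 fold change -0.66, SE 0.19, adjusted p = 0.14). UOX, the urate oxidase, had medians of 116 and 81.8 CPM (log2 fold change -0.56, adjusted p = 0.37).

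Genes of sugar and energy use had 3 of 12 higher and none lower at that mark, with a median of 0.05. NDUFA4, a subunit of the respiratory chain, had 93.4 to 143 CPM in ZG and 124 to 181 CPM in H2 (log2 fold change 0.33, SE 0.10, adjusted p = 0.17). PPP1R3C, which targets a phosphatase to glycogen, had medians of 170 and 289 CPM, with a wide H2 range from 59.1 to 901 CPM (log2 fold change 0.83, SE 0.38, adjusted p = 0.35). Translation genes had 2 of 9 higher, EIF3I (0.26) and EIF4B (0.25) on the log2 scale. Among chaperone and proteasome genes HSPA1A, the inducible heat shock protein, had 48.4 to 577 CPM in ZG and 48.6 to 306 CPM in H2 (log2 fold change -1.05, SE 0.36, adjusted p = 0.23).

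Lipid genes had 2 of 14 lower and none higher, with a median of -0.05. G0S2, an inhibitor of fat breakdown, had medians of 14.3 CPM in ZG and 7.54 in H2 (log2 fold change -0.84, SE 0.32, adjusted p = 0.26). SOAT2, which esterifies cholesterol, had medians of 11.3 and 7.98 CPM (log2 fold change -0.65, adjusted p = 0.37). DGAT2, which makes triacylglycerol, differed little (40.3 and 37.5 CPM, log2 fold change 0.09, SE 0.16). In methionine, glycine and amino acid breakdown 1 of 11 genes was past the mark, GOT2 at 0.25.

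**Figure D4:**
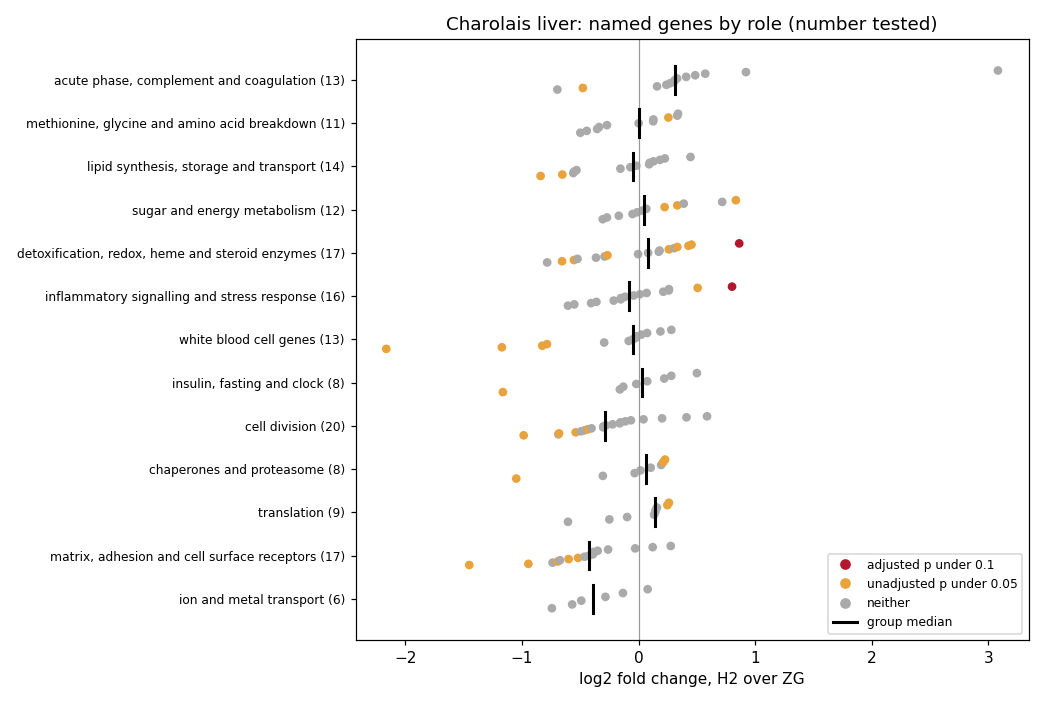
Log2 fold changes of H2 over ZG for the named genes in 13 role groups, with the number tested in brackets. Points are genes, red at an adjusted p under 0.1 and orange at an unadjusted p under 0.05, and bars are group medians. The medians of matrix, adhesion and receptor genes (-0.42), ion and metal transport (-0.39) and cell division (-0.29) lie furthest below 0.

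Matrix, adhesion and cell surface receptor genes had the lowest median of these groups, -0.42, with 15 of 17 log2 fold changes below 0. At the unadjusted mark 5 were lower (29.4%, against 6.09% of all genes) and none higher. The group was drawn from the named genes, of which 42 of 312 were lower at that mark. ANOS1, an extracellular matrix glycoprotein, had 4.61 to 9.31 CPM in ZG and 0.996 to 8.98 CPM in H2 (log2 fold change -0.69, SE 0.23, adjusted p = 0.22). Its lowest and highest H2 libraries were those of steers 493 and 454, the ends of the first principal component. The part of that component in the values of this group was not tested. P4HA1, the prolyl hydroxylase that matures collagen, had medians of 34.8 and 22.7 CPM (log2 fold change -0.52, adjusted p = 0.37). Cell division genes had 4 of 20 lower (20%, against 6.09% of all genes) and none higher, with a median of -0.29. KIFC1, a spindle motor, had medians of 1.37 CPM in ZG, 0.600 in H2 and 2.41 in H1, and 11 of 17 H2 libraries lay below the lowest ZG library (log2 fold change -0.99, SE 0.31, adjusted p = 0.20). TROAP, a mitotic adhesion protein, had medians of 0.888 and 0.585 CPM (log2 fold change -0.68, SE 0.23, adjusted p = 0.23). These genes were near 1 CPM, where few reads stand behind a value. The 6 ion and metal transport genes had a median of -0.39 and none past the unadjusted mark.

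White blood cell genes had 4 of 13 lower (30.8%, against 6.09% of all genes and 42 of the 312 named genes) and none higher, with a median of -0.05. Beside GIMAP4 and GIMAP8 these were UNC13D, which primes granules for release (5.82 and 2.96 CPM, log2 fold change -0.83, adjusted p = 0.23), and PTPRCAP, a partner of the leukocyte phosphatase CD45 (2.42 and 1.20 CPM, log2 fold change -0.79, adjusted p = 0.33). The summed level of all 14 genes of this group ranged from 161 to 484 CPM in ZG and from 113 to 328 CPM in H2. Without GIMAP4 it ranged from 144 to 304 CPM in ZG (median 167) and from 106 to 187 CPM in H2 (median 136). In ZG steer 437 GIMAP8 alone held 171 CPM of that sum, against 27.3 CPM in the next ZG library. No defining marker of a white blood cell type had a matched symbol, and the part of these cells in any result was not tested.

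Acute phase, complement and coagulation genes had a positive median of 0.31 with 11 of 13 log2 fold changes above 0, but none was higher and 1 was lower at the unadjusted mark. FGG had medians of 11465 CPM in ZG and 17697 in H2 (log2 fold change 0.48, SE 0.26, adjusted p = 0.42). Haptoglobin (HP) ranged from 10.9 to 2381 CPM in ZG and from 26.3 to 26034 CPM in H2 (log2 fold change 0.92, SE 1.599). Steer 419 alone had the highest HP, LBP (1286 CPM) and SERPINA3 (1997 CPM) of the H2 libraries, all genes of the hepatic response to infection or injury, while M-SAA3.2, a serum amyloid A gene (10.2 CPM), and C1R, a complement protease (132 CPM), were highest in steer 1320. FETUB, a secreted protease inhibitor, was the 1 lower gene, with medians of 143 and 91.0 CPM (log2 fold change -0.48, adjusted p = 0.35). The insulin, fasting and clock group had 1 of 8 past the mark, IRS2, the insulin receptor substrate, at -1.16 (SE 0.48).

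The first concentrate phase (H1), fed the same diet as H2 but before ZG to younger steers, gave a level for each gene on either side of the grass phase. The tests against H1 treat libraries as independent, although 4 steers had libraries in H1 and H2 and 3 in H1 and ZG. FAM213A had a median of 61.9 CPM in the 20 H1 libraries, close to ZG (log2 difference H1 over ZG 0.06, adjusted p = 0.77) and below H2 (H2 over H1 0.80, adjusted p = 1.8e-08). MAP2K6 at 15.4 CPM and FAM149A at 95.2 CPM were likewise below H2 (0.59 and 0.59, adjusted p = 9.0e-06 and 3.9e-09) and did not pass the test against ZG (0.20 and -0.16). HIST1H2BD at 7.44 CPM was above ZG (0.67, adjusted p = 0.019). ALAS1 had a median of 179 CPM in H1 and was lower there than in ZG (-1.14, adjusted p = 0.00030) and than in H2, which exceeded H1 by 0.48 (adjusted p = 0.0036). ERMP1, an endoplasmic reticulum protease, had medians of 56.3 CPM in H1, 84.8 in ZG and 61.8 in H2, lower in H1 than in ZG by a log2 difference of -0.48 (adjusted p = 0.0024). Between H2 and ZG in Charolais ERMP1 was not called. Its log2 fold change ran from -0.50 to -0.31 over 16 alternatives, of which 6 gave a call. So ALAS1 and ERMP1 had their highest median in the grass phase, while FAM213A, MAP2K6 and FAM149A had theirs in H2. In the 4 steers with libraries in H1 and H2, 1100, 1320, 307 and 364, FAM213A went from 81.0, 74.2, 68.7 and 65.2 CPM to 135, 109, 87.9 and 133 CPM.

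The change between phases was set beside that in HF steers on the same feeding scheme, which are other animals (18 ZG and 13 H2 libraries). One HF library of H2 carries a steer number, 1797, that the H1 labels give as Charolais. In HF 414 of 12417 genes were called (3.33%). Of the 97 genes called in Charolais 95 were tested in HF, 91 had a fold change in the same direction (95.8%, against 68.3% of the other 12312 genes tested in both breeds) and 17 were called in that direction (17.9%, against 3.33% of all). No gene was called in opposite directions. FAM213A rose by a log2 fold change of 0.61 in HF (SE 0.13, adjusted p = 0.0097), MAP2K6 by 0.67 (SE 0.13, adjusted p = 0.0036) and HIST1H2BD by 0.58 (SE 0.16, adjusted p = 0.062). FAM149A at 0.20 (adjusted p = 0.18) and LOC768255 at -0.35 (SE 0.68, adjusted p = 0.87) did not pass in HF. ERMP1, which was not called between H2 and ZG in Charolais, fell in HF by 0.36 on the log2 scale (adjusted p = 0.039). In the 3 HF steers with libraries in both phases, 1639, 5612 and 5632, MAP2K6 went from 11.9, 15.1 and 13.8 CPM to 20.1, 22.997 and 30.4 CPM, and FAM213A from 71.9, 55.2 and 42.5 CPM to 76.9, 106 and 79.96 CPM. Steer 5612 is the HF steer that did not keep its LOC768255 set, and its GIMAP4 also went from 302 CPM in ZG to 9.94 CPM in H2.

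**Figure D5:**
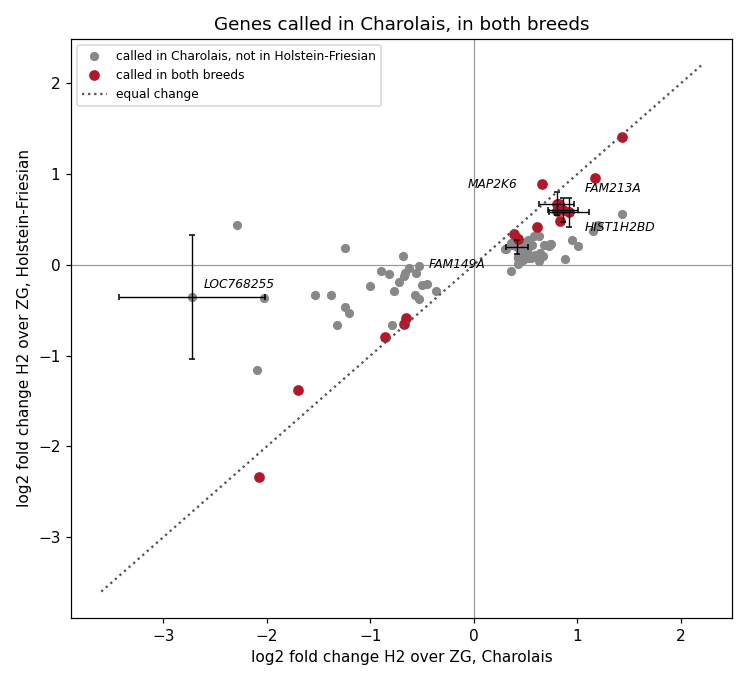
Log2 fold change of H2 over ZG in Charolais (horizontal) and Holstein-Friesian (vertical) for the 95 genes called in Charolais and tested in both. Red points were called in both breeds, the 5 genes with a symbol carry bars of 1 standard error, and 91 of the points lie in the quadrants of equal direction.

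No gene was called for a different change in the 2 breeds (0 of 13292 with edgeR and limma-voom, 3 with DESeq2), and 525 genes (3.95%) had an unadjusted p under 0.05. The difference HF minus Charolais was -0.25 for FAM213A (95% interval -0.64 to 0.14), -0.14 for MAP2K6 (-0.57 to 0.28) and 1.35 for LOC768255 (-0.72 to 3.43). This fit shares its RFI term between the breeds, so for LOC768255 the value is not the difference of the values fitted in each breed. These intervals do not show that the breeds respond alike.

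No gene was called for a different change in low and high RFI steers either (0 of 12962 with edgeR, DESeq2 and limma-voom), and 428 (3.3%) had an unadjusted p under 0.05. With 3 ZG steers in each RFI group the median standard error of this difference was 0.37. The following 4 genes were picked after their values were seen and are among those the study listed as differing by RFI in these samples. Their separation by RFI in ZG is therefore not independent evidence. The p-values of their difference in change rest on the same ZG libraries and are not independent evidence either. TNC, the matrix protein tenascin-C, had 55.3 to 105 CPM in the low RFI and 15.2 to 23.3 CPM in the high RFI steers of ZG, against H2 medians of 12.7 and 6.27 CPM. In H2 the high RFI libraries ran from 5.09 to 97.3 CPM, the highest being steer 419 and the next 23.1 CPM. Its log2 fold change over both groups was -1.45 (SE 0.56, adjusted p = 0.27), and the change in low RFI minus that in high RFI was -2.65 (unadjusted p = 0.015, adjusted p = 0.91), or -1.59 (unadjusted p = 0.024, adjusted p = 0.93) without the H2 library of steer 419, an alternative chosen after seeing the data. SLC39A4, an intestinal-type zinc importer, had medians of 1.501 CPM in low RFI and 8.19 CPM in high RFI steers of ZG, and of 1.99 and 2.03 CPM in H2 (difference 2.48, unadjusted p = 0.026). HSPA1A had ZG medians of 186 CPM in low and 565 CPM in high RFI and H2 medians of 123 and 157 CPM (difference 1.69, unadjusted p = 0.017). BHMT2, a methionine-forming methyltransferase, had 35.7 to 43.3 CPM in low and 15.9 to 17.3 CPM in high RFI in ZG, and medians of 22.9 and 15.0 CPM in H2 (difference -1.02, unadjusted p = 0.043). For TNC, SLC39A4, HSPA1A and BHMT2 the ZG ranges of low and high RFI steers did not overlap, and the H2 ranges did. Ranges of 3 and 3 ZG libraries separate more easily than those of 9 and 8 H2 libraries. The share of all genes that separate in this way was not counted, so no change with phase is read from it. The first principal component also split these ZG libraries by RFI, and its part in these separations was not tested.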

How the data were processed

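Liver mRNA libraries were sequenced as 50-base single-end reads, per the study's methods. The authors trimmed the reads, aligned them by STAR to build UMD3.1 of the cattle genome and deposited raw gene counts for 24616 Ensembl genes, without normalisation. The submitters' processing notes give STAR 2.5.3a and FastQC 0.11.5. Whether counting used the strand is not given in the sources used here, so antisense neighbours may share reads. Gene positions and sequences were not used here. Samples were grouped by the breed, diet and RFI labels. Each library comes from 1 steer, and no library was counted more than once.

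From the deposited counts, genes were filtered with filterByExpr by phase, scaled by TMM and tested with edgeR 4.0.16 (robust quasi-likelihood, RFI and diet as terms, Benjamini-Hochberg, threshold 0.1) in R 4.3.3. CPM values are TMM-scaled over all 43 Charolais libraries, and HF CPM over the HF libraries. DESeq2 1.42.0 and limma-voom (limma 3.58.1) were alternatives, and all were tested on simulated data. Symbols came from the study's supplement (352 identifiers). The gene lists drawn up for pathways matched 41 of 515 symbols and those for cell markers 1 of 104 (CIDEC), so no pathway list is described on its own. The groups by role hold the named genes instead. Genes named by rule were the called genes with a mean of at least 5 CPM, the 5 of smallest p in each direction and the most abundant members of each list. Genes given in the role groups and the identifiers without symbols were picked by smallest p after their values were seen. The comparison, members and lists were chosen with earlier results of these data known.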

Additional observations from a re-analysis of the deposited data

Results flagged for a closer look

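A single library stood far from the rest of its group in 2 of 30 groups examined (10 genes in ZG, in H2 low RFI and in H2 high RFI), and chance flags about 1 in 20 groups. GIMAP8 was 171 CPM in ZG steer 437, while the next of the 6 ZG libraries had 27.3 CPM and the median was 21.5. The same library had the highest GIMAP4 and LOC768255 of ZG, at 180 CPM in each. FAM213A was 151 CPM in H2 low RFI steer 493, against 102 CPM in the next of the 9 libraries of that group and a median of 87.9. Steer 493 was also an end of the first principal component, and FAM213A stayed called without it and steer 454.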

How the results depend on the processing

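The number of genes called between H2 and ZG in Charolais was 97, and was 95 with DESeq2 size factors and 101 without RFI in the model. It was 385 with DESeq2, 162 with limma-voom, 43 with no filter on low counts, 59 with at least 10 counts in every library, 29 at an adjusted p under 0.05, 400 with all 90 libraries in 1 fit and 45 without both libraries of steer 307. Leaving out each ZG steer in turn gave 9 to 200. Without the H2 libraries of steers 454 and 493, an alternative chosen after seeing the data, it was 270. All 97 genes were among those of DESeq2, and 93 among those of limma-voom. The cause of these shifts was not tested. In HF, 414 genes were called, 667 with DESeq2 and 227 at an adjusted p under 0.05. The breed difference had 3 calls with DESeq2 and 0 in the other fits, including each ZG steer left out, and the RFI difference had 0 throughout.

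No paired analysis of H2 against ZG was possible for Charolais because steer 307 alone has a library in both phases. The 3 HF steers sampled in both phases allow a replicate block by steer (limma-voom), with which 381 genes were called in HF and 0 for the breed difference. For the 3 Charolais phases a replicate block by steer, added after seeing the data (6 steers with more than 1 library), changed no call against H1 that is reported. FAM213A, for example, exceeded H1 in H2 by 0.76 (adjusted p = 7.1e-10).

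Of 1219 recomputed log2 fold changes of 77 named genes, 1133 kept their direction and call, 27 lost and 35 gained a call, and 24 changed sign, none of them in a called gene. MYC was 0.01 and became -0.0141 with no filter, -0.0386 with at least 10 counts, -0.17 with limma-voom, -0.0457 without RFI and -0.10 without steer 307. NOCT was 0.0559 without steers 454 and 493, NR0B2 0.11 with all libraries, and C1R -0.64 with DESeq2, where 1 H2 library held 132 CPM. With a ZG steer left out, the log2 fold changes of genes that changed sign ran from -0.33 to 0.24 for SIK1, -0.25 to 0.38 for NOCT, -0.28 to 0.0218 for MID1IP1, -0.15 to 0.27 for MYC, -0.0697 to 0.20 for ABCA6, -0.24 to 0.31 for NR0B2, -0.49 to 0.0453 for IFI44 and -0.13 to 0.0640 for GSTM1 (ENSBTAG00000037673). With 6 ZG libraries and a median standard error of 0.19, small differences were not detectable.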
